A study of Mus musculus with 8 samples.

Results

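MicroRNAs (miRs) with described roles in hypoxia or in the growth of vessels, 6 in all, were followed in extracellular vesicles (EVs) from mouse muscle. They were chosen by name, from their described roles, as the rows mmu-miR-210-3p, mmu-miR-130a-3p, mmu-miR-132-3p, mmu-miR-296-5p, mmu-miR-221-3p and mmu-miR-222-3p of the count table (the mouse prefix is left out from here on), and all 6 were present among its 1755 miRs. Each passed the filter on low counts. The EVs came from male C57BL/6J mice bought at 10 to 12 weeks of age, and small RNA was sequenced from 4 preparations of oxidative muscle (OXI-EV, the soleus combined with the red gastrocnemius) and 4 of glycolytic muscle (GLY-EV, the whole quadriceps). The muscle of 1 leg per animal was kept unpooled, teased apart and held for 24 h in serum-free DMEM, from which EVs were recovered by ultrafiltration and size exclusion chromatography. No genotype, drug or exercise sets the groups apart in the labels, only the muscle. Since whole muscle was incubated, vesicles of vessel, connective tissue and blood cells can be present beside those of the fibers, and less RNA per vesicle cannot be told apart from fewer vesicles of one kind.

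A miR is cut from a hairpin RNA whose 5′ and 3′ arms can each give a mature strand, and it lowers the output of mRNAs that pair with its seed, the bases near its 5′ end. miR-210-3p is the miR most widely induced by hypoxia-inducible factors. miR-130a-3p, miR-132-3p and miR-296-5p have been described in human endothelial cells as favouring vessel growth, through repression of the homeobox genes GAX and HOXA5, of the Ras inhibitor RASA1 and of the receptor-sorting protein HGS. miR-221-3p and miR-222-3p were described in human endothelial cells as restraining it, through the stem cell factor receptor KIT.

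The mature sequences show which of these miRs can share targets and which could share reads. They are RefSeq sequences (GRCm38.p6), written 5′ to 3′ with the seed (bases 2 to 8) in capitals, and the first 6 are the miRs described, followed by 4 miRs with the same seed as one of them.
miR-210-3p: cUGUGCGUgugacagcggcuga
miR-130a-3p: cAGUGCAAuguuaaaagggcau
miR-132-3p: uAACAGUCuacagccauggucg
miR-296-5p: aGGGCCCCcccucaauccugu
miR-221-3p: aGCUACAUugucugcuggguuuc
miR-222-3p: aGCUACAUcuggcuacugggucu
miR-130b-3p: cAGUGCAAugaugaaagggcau
miR-301a-3p: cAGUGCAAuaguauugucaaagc
miR-212-3p: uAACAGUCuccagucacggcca
miR-1928: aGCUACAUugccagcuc

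The 6 miRs carry 5 different seeds, because miR-221-3p and miR-222-3p share theirs. Beyond the seed these sisters differ, with 11 of 23 positions the same when aligned from the 5′ end without gaps. miR-132-3p has the seed of miR-212-3p and differs from it at 5 positions. miR-130a-3p has the seed of 6 other miRs of the reference that the table holds. Of these miRs it is nearest to miR-130b-3p, from which it differs by U11A and A13G (the base of miR-130a-3p, the position counted from its 5′ end, the base of miR-130b-3p). The reference held 1517 of the 1755 miRs, so further miRs of the table could share a seed. miR-210-3p and miR-296-5p share their seed with no other miR of the reference that the table holds, and their nearest miRs in sequence differ at 7 positions each. How reads that fit several miRs were assigned is not given in the sources used here, so the miR-130a-3p and miR-130b-3p counts are the least certain of these.

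By coordinates of GRCm38.p6, the hairpins lie at 4 loci that hold 1 of the miRs each and at 1 locus that holds both sisters. Mir210 is at chr7:141221384-141221493 on the minus strand and Mir130a at chr2:84741115-84741178 on the minus strand. Mir132 is at chr11:75173682-75173747 on the plus strand, 203 bases from Mir212 (chr11:75173388-75173478), and both lie in an intron of the noncoding transcript 1700016P03Rik, on its strand. Mir296 is at chr2:174267047-174267125 on the minus strand, 378 bases from Mir298 (chr2:174267504-174267585). Mir221 (chrX:19146294-19146388) and Mir222 (chrX:19146893-19146971) stand 504 bases apart on the minus strand. Apart from Mir132 and Mir212, none of these hairpins overlapped another gene of the GENCODE annotation.

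OXI-EV libraries held 4151145 to 4867396 mapped reads, GLY-EV libraries 5179262 to 7197716, and the miR counts summed to 348730 to 572106 and 587068 to 1004011. Levels are given as counts per 1000000 mapped reads (CPM), and differences as the log2 fold change, OXI-EV minus GLY-EV, from edgeR's quasi-likelihood test over the 1569 miRs that reached 10 counts in 4 or more of the 8 libraries. Adjusted p-values are by the Benjamini-Hochberg method over all of these, with a threshold of 0.05. The scale between libraries matters for miRs this rare. Over all miRs tested, the log2 fold change had a median of 0.48 on the mapped-read scale, 0.09 with TMM scaling, which takes most miRs as equal, and 0.98 when libraries were scaled to their total miR counts. Skeletal muscle miRs (7 listed) summed to 52023 to 84424 CPM in OXI-EV libraries and 64944 to 122510 CPM in GLY-EV libraries. The sum joins miRs that went opposite ways. miR-1a-3p had a log2 fold change of -1.69 (adjusted p = 0.000261 from edgeR) and miR-206-3p of 2.58 (adjusted p = 1.93e-05 from edgeR). Of the 7, 5 passed the adjusted threshold.

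All 6 miRs were minor components of both kinds of EV. Together they made up 0.0588% ± 0.0434 (SD, n = 4) of the miR counts in OXI-EV and 0.0252% ± 0.00784 (SD, n = 4) in GLY-EV. Without miR-130a-3p, the share was 0.0279% ± 0.00251 (SD, n = 4) in OXI-EV and 0.0186% ± 0.00675 (SD, n = 4) in GLY-EV. By mean count over the 8 libraries, 121 miRs of the table stood above miR-130a-3p, 357 above miR-221-3p, 739 above miR-296-5p, 877 above miR-132-3p, 912 above miR-210-3p and 1340 above miR-222-3p. The median mean count of the table was 22.9, and the mean counts of the 6 miRs were 13.5 to 109. For scale, miR-122-5p, a miR of liver cells, had 5 to 32 counts per library, in the range of most of these miRs.

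The order of the levels was not the same in the 2 groups. In OXI-EV the median level ran from miR-130a-3p (8.25 CPM) through miR-221-3p (7.71), miR-296-5p (6.86), miR-132-3p (4.34) and miR-222-3p (3.45) to miR-210-3p (3.45). In GLY-EV it ran from miR-221-3p (9.12 CPM) through miR-130a-3p (8.15), miR-132-3p (3.93), miR-210-3p (3.33) and miR-296-5p (2.60) to miR-222-3p (0.695). Every pair of neighbours in either order overlapped in range, so no step between neighbours exceeded the spread of the libraries. Some steps held within each library all the same, as miR-132-3p was above miR-222-3p in 4 of 4 OXI-EV libraries and miR-130a-3p above miR-132-3p in 4 of 4 GLY-EV libraries.

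**Figure D1:**
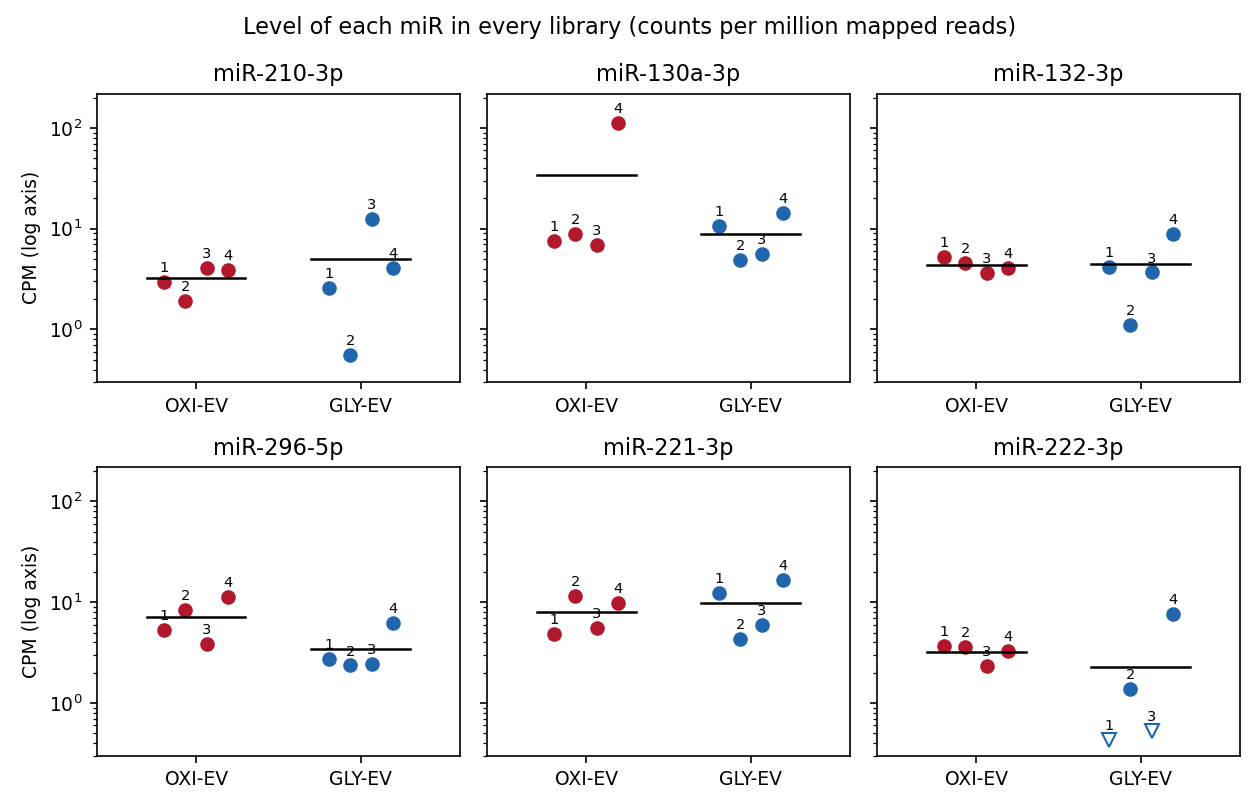
Level of the 6 miRs in each library, in CPM on a log axis. Points are libraries with their replicate number, lines are group means (zeros included), and open triangles mark libraries with 0 counts at the level that 3 counts would give. miR-130a-3p in OXI-EV 4, at 113 CPM, is the highest point, and OXI-EV and GLY-EV overlap for each miR.

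At an adjusted p under 0.05 from edgeR, 0 of the 6 differed between the groups, beside 1.85% of all miRs tested, and at an unadjusted p under 0.05 it was also 0 of 6, beside 14.5%. The groups overlapped for each of the 6, whereas they did not overlap for 8.22% of the miRs tested. With TMM scaling the number past the adjusted threshold was again 0 of 6, beside 5.48% of all. When scaled to total miR counts it was 1 of 6, miR-296-5p, beside 15% of all miRs and 12% higher in OXI-EV. The median log2 fold change of the 6 was 0.26 (0.13 with TMM), with 3 above and 3 below 0. On the mapped-read scale the 29 miRs that passed were all among the 129 with a mean count of at least 100, and 0 of the 1440 tested miRs below that mean passed. Of the 6, miR-130a-3p alone reached it.

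miR-210-3p, the hypoxia-induced miR, was counted 13, 8, 19 and 19 times in OXI-EV replicates 1 to 4 and 18, 4, 72 and 21 times in GLY-EV replicates 1 to 4. The OXI-EV libraries were close to each other, while GLY-EV held both the lowest library and the highest, so that the OXI-EV range lay within that of GLY-EV. The level was 3.22 ± 0.985 CPM (SD, n = 4) in OXI-EV and 4.96 ± 5.30 CPM (SD, n = 4) in GLY-EV. In OXI-EV the coefficient of variation was 30.6%, near the 26.0% that counting error alone would give, and in GLY-EV it was 107%. The log2 fold change was -0.61 (standard error 0.73, 95% interval -2.19 to 0.98, adjusted p = 0.719 from edgeR) and -0.99 with TMM. It rested on GLY-EV 3, at 12.6 CPM or 3.10 times the next library, and was 0.44 (adjusted p = 0.867 from edgeR) without that library. Its 5p arm had 4, 2, 12 and 10 counts in OXI-EV and 0, 1, 0 and 12 in GLY-EV and was too rare to be tested.

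miR-130a-3p had the largest difference of the 6 and owed it to 1 library. It was counted 33, 37, 32 and 550 times in OXI-EV and 74, 35, 32 and 75 times in GLY-EV. OXI-EV 4 alone, at 113 CPM, stood above all others, and the other 3 OXI-EV libraries, at 6.85 to 8.91 CPM, lay within the GLY-EV range of 4.86 to 14.5 CPM. The group levels were 34.1 ± 52.6 CPM (SD, n = 4) in OXI-EV and 8.91 ± 4.53 CPM (SD, n = 4) in GLY-EV. The log2 fold change was 1.94 (standard error 0.91, 95% interval -0.03 to 3.91, adjusted p = 0.344 from edgeR), and without OXI-EV 4 it was -0.19 (adjusted p = 0.965 from edgeR).

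The peak of miR-130a-3p in OXI-EV 4 was 7.80 times the next library, and 25 of the 1569 miRs tested had a higher ratio of this kind. A highest library at least 5 times the next was found for 1 of the 6 miRs and for 4.78% of all tested, 75 miRs, of which 28 peaked in OXI-EV 4 and 26 in OXI-EV 2. In OXI-EV 4 these included miR-9-5p, a neural miR, with 671 counts against 6 to 32 in the other libraries, and miR-30b-5p, with 960 against 16 to 178. Of the other neural markers, miR-124-3p had 0 counts in OXI-EV 4 and its highest count, 72, in OXI-EV 2. miR-128-3p had 179 counts in OXI-EV 4, against 72 to 125 for the other OXI-EV and 171 to 927 for the GLY-EV libraries. The sum of the 3 neural markers was 17.9 to 175 CPM across OXI-EV libraries and 33.3 to 185 CPM across GLY-EV libraries, with 138 CPM of the 175 in OXI-EV 4 from miR-9-5p, and its part in the miR-130a-3p value was not tested. The tested miRs found to share the seed of miR-130a-3p had no peak of this size there. In OXI-EV 4 the count was 14 for miR-130b-3p, 17 for miR-130c and 23 for miR-721, and miR-301a-3p, with 47, was highest there at 1.10 times the next library in CPM. The other arm of the same hairpin, miR-130a-5p, had 21 counts there and its highest count, 92, in GLY-EV 4.

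miR-132-3p was the steadiest of the 6 in OXI-EV and did not separate the groups. It was counted 23, 19, 17 and 20 times in OXI-EV and 29, 8, 21 and 46 times in GLY-EV. The OXI-EV libraries fell between the lowest and the highest GLY-EV library, with a coefficient of variation of 15.97%, below the 22.5% of counting error alone. The level was 4.403 ± 0.703 CPM (SD, n = 4) in OXI-EV and 4.47 ± 3.24 CPM (SD, n = 4) in GLY-EV. The log2 fold change was -0.01 (standard error 0.57, adjusted p = 0.993 from edgeR), and its 95% interval of -1.25 to 1.23 leaves room for a difference of more than 1 on the log2 scale either way.

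Its neighbour on chromosome 11, miR-212-3p, was the more abundant of the pair in all 8 libraries, with 51, 66, 47 and 84 counts in OXI-EV and 55, 37, 51 and 115 in GLY-EV. Both miRs were highest in count in GLY-EV 4 and lowest in GLY-EV 2. The log2 ratio of miR-132-3p to miR-212-3p, which does not depend on the scale between libraries, was -1.60 ± 0.396 (SD, n = 4) in OXI-EV and -1.41 ± 0.521 (SD, n = 4) in GLY-EV (two-sided exact permutation p = 0.600, adjusted p = 0.743 over 5 such ratios). The other arms were patchy, with miR-132-5p at 0 counts in OXI-EV 1, OXI-EV 3 and GLY-EV 2 and 7 to 49 elsewhere, and miR-212-5p at 0 in 4 libraries.

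miR-296-5p was the miR whose groups came nearest to separating. It was counted 23, 35, 18 and 55 times in OXI-EV and 19, 17, 14 and 32 times in GLY-EV, or 5.29, 8.43, 3.85 and 11.3 CPM against 2.75, 2.36, 2.45 and 6.18 CPM. Each OXI-EV library was above 3 of the 4 GLY-EV libraries, and GLY-EV 4 was above OXI-EV 1 and OXI-EV 3. The level was 7.22 ± 3.33 CPM (SD, n = 4) in OXI-EV and 3.43 ± 1.84 CPM (SD, n = 4) in GLY-EV. The log2 fold change was 1.07 (standard error 0.53, 95% interval -0.07 to 2.22, adjusted p = 0.367 from edgeR) and 0.66 with TMM (adjusted p = 0.390 from edgeR). Leaving out 1 library at a time kept it between 0.77 and 1.51. Scaled to total miR counts it was 1.56 and past the threshold (adjusted p = 0.0355 from edgeR), on a scale where the median of all miRs was itself at 0.98.

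The neighbours of miR-296-5p on its hairpin and beside it had values on the same side. miR-296-3p was counted 43, 36, 67 and 138 times in OXI-EV and 28, 7, 96 and 35 times in GLY-EV, a log2 difference of 1.10 (adjusted p = 0.497 from edgeR). miR-298-5p was counted 22, 38, 26 and 103 times in OXI-EV and 12, 18, 18 and 36 times in GLY-EV, and its log2 fold change was 1.52 (unadjusted p = 0.0313 and adjusted p = 0.289 from edgeR). miR-298-3p had 0.57 (adjusted p = 0.628 from edgeR). None of the 3 passed the adjusted threshold, and the groups overlapped for each. Among the alternatives run, miR-298-5p was past it when scaled to total miR counts, at 1.97 (adjusted p = 0.0355 from edgeR). The log2 ratio of miR-296-5p to miR-298-5p was -0.37 ± 0.429 (SD, n = 4) in OXI-EV and 0.01 ± 0.436 (SD, n = 4) in GLY-EV (two-sided exact permutation p = 0.314).

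miR-221-3p and miR-222-3p come from 1 locus, share a seed and were counted unequally. miR-221-3p had 21, 48, 26 and 48 counts in OXI-EV and 85, 31, 34 and 87 in GLY-EV. The GLY-EV libraries split, with replicates 1 and 4 above all OXI-EV libraries and replicates 2 and 3 among or below them in CPM. Its level was 7.95 ± 3.27 CPM (SD, n = 4) in OXI-EV and 9.84 ± 5.78 CPM (SD, n = 4) in GLY-EV. The log2 fold change was -0.30 (standard error 0.55, 95% interval -1.505 to 0.90, adjusted p = 0.806 from edgeR), -0.66 with TMM (adjusted p = 0.341 from edgeR) and 0.08 without GLY-EV 4.

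miR-222-3p was the rarest of the 6, with 16, 15, 11 and 16 counts in OXI-EV and 0, 10, 0 and 40 in GLY-EV. It was thus even in OXI-EV, where the coefficient of variation was 18.9% against 26.3% from counting error, and uneven in GLY-EV, which held both its absence in 2 libraries and its highest count. A count of 0 allows up to 0.433 CPM in GLY-EV 1 and 0.526 CPM in GLY-EV 3 (3 counts, counting error only), whereas the OXI-EV libraries were at 2.36 to 3.68 CPM. The level was 3.23 ± 0.610 CPM (SD, n = 4) in OXI-EV and 2.28 ± 3.69 CPM (SD, n = 4) in GLY-EV. The log2 fold change was 0.53 (standard error 1.12, 95% interval -1.89 to 2.95, adjusted p = 0.834 from edgeR), and without GLY-EV 4 it was 2.70 (adjusted p = 0.208 from edgeR). It was 0.10 without GLY-EV 1 and 2.81 with limma-voom (adjusted p = 0.410).

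miR-221-3p was above miR-222-3p in 8 of 8 libraries. The log2 ratio of their counts (each plus 0.5) was between 0.38 and 1.65 in OXI-EV and between 1.11 and 7.42 in GLY-EV, where the 2 highest values are those of the libraries with no miR-222-3p count and depend on the added 0.5. Its mean was 1.197 ± 0.576 (SD, n = 4) in OXI-EV and 4.06 ± 3.18 (SD, n = 4) in GLY-EV (two-sided exact permutation p = 0.229, adjusted p = 0.743). In GLY-EV 1, where miR-222-3p had 0 counts, miR-221-3p had 85, near its highest count. Another miR with this seed, miR-1928, had 37, 37, 27 and 112 counts in OXI-EV and 33, 9, 20 and 30 in GLY-EV, and its log2 fold change was 1.59 (unadjusted p = 0.0220, adjusted p = 0.268 from edgeR). It was 1.02 without OXI-EV 4, and past the adjusted threshold when scaled to total miR counts, at 2.01 (adjusted p = 0.0355 from edgeR).

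**Figure D2:**
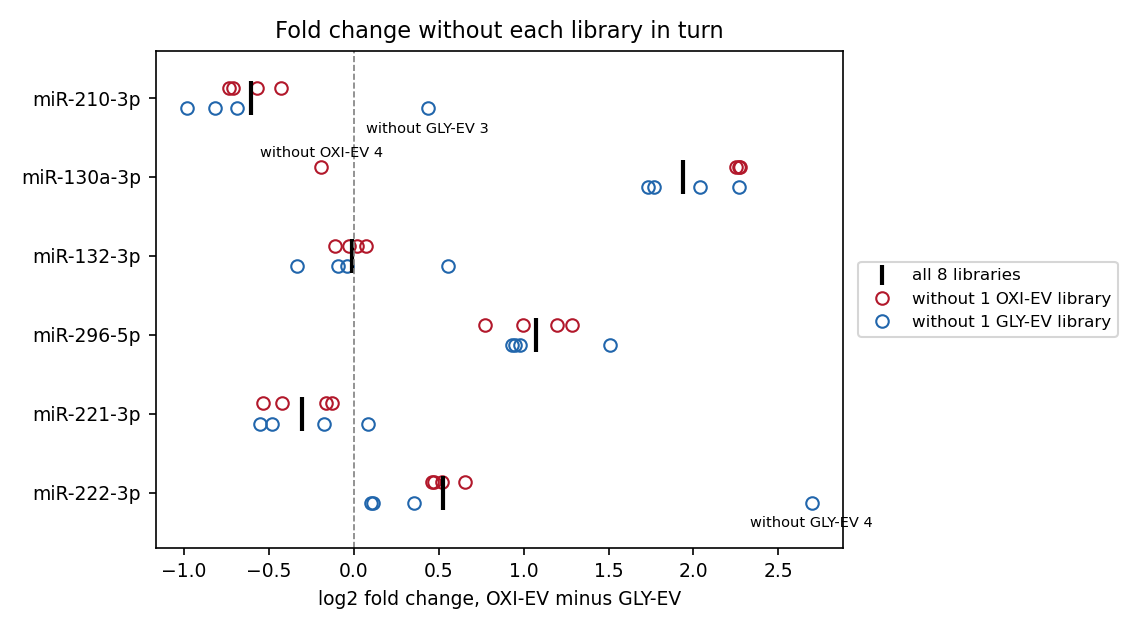
Log2 fold change (OXI-EV minus GLY-EV) of the 6 miRs with all 8 libraries (bars) and without each library in turn (circles, by the group of the library left out). miR-130a-3p moves from 1.94 to -0.19 without OXI-EV 4, miR-210-3p from -0.61 to 0.44 without GLY-EV 3 and miR-222-3p from 0.53 to 2.70 without GLY-EV 4.

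Another scale shifts the fold changes, though not by the same amount for each miR. From mapped reads to TMM the median of all miRs went from 0.48 to 0.09, and miR-222-3p from 0.53 to 0.44. Each of the 6 was therefore also set against the median of all miRs tested, which removes the shift of that median only. miR-130a-3p stood 1.46 above that median on the mapped-read scale, 1.32 with TMM and 1.24 when scaled to total miR counts (log2). For miR-296-5p the same distances were 0.59, 0.57 and 0.58. miR-222-3p was at 0.04, 0.35 and 0.37. Below the median were miR-132-3p at -0.49, -0.28 and -0.39, miR-221-3p at -0.78, -0.75 and -0.76, and miR-210-3p at -1.09, -1.09 and -1.21. The sign of the fold change itself was not the same on these 3 scales for miR-132-3p and miR-221-3p.

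**Figure D3:**
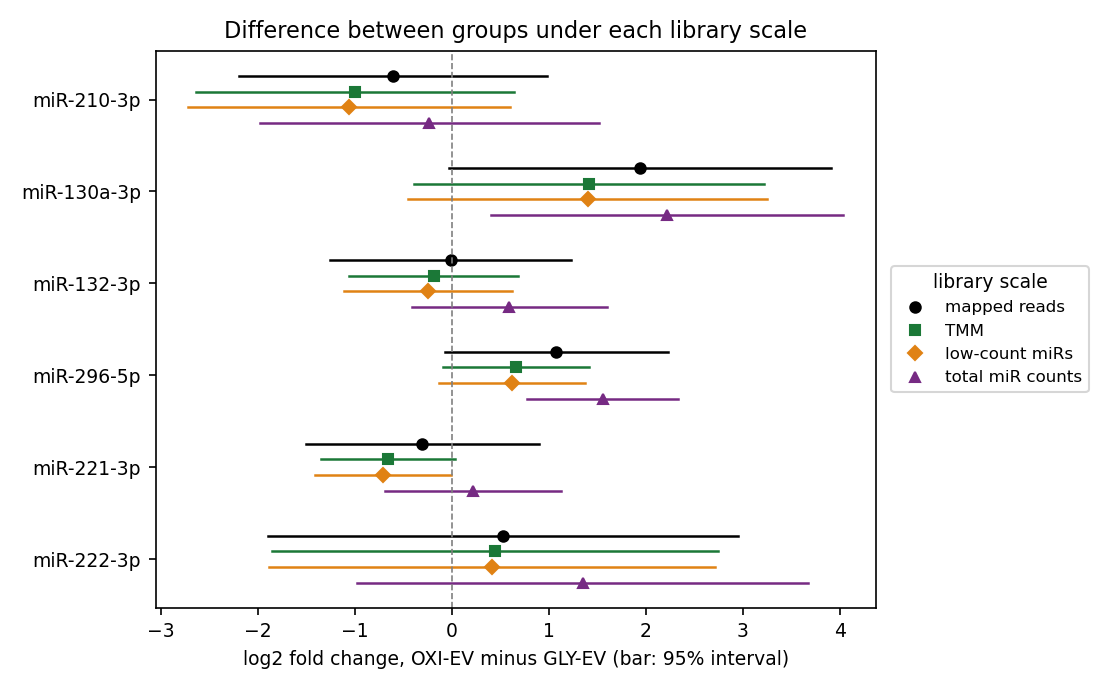
Log2 fold change (OXI-EV minus GLY-EV) of the 6 miRs with its 95% interval under 4 scales between libraries. The scale over low-count miRs was added after the data were seen. Intervals that exclude 0 are those of miR-130a-3p and miR-296-5p when scaled to total miR counts and that of miR-221-3p on the low-count scale, and of these miR-296-5p alone is past an adjusted p of 0.05.

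Each miR was also placed among the 50 tested miRs nearest to it in mean count, of which 0 passed the adjusted threshold in any of the 6 sets. Those around miR-210-3p had a median log2 fold change of 0.71, and 49 of the 50 were above it. Around miR-221-3p the median was 0.37 with 45 of 50 above, and around miR-132-3p 0.64 with 41 of 50 above. miR-222-3p sat in the middle of its set, with a median of 0.56 and 26 of 50 above. Around miR-296-5p the median was 0.37 with 7 of 50 above, and around miR-130a-3p 0.17 with 5 of 50 above. The values describe positions only, and those of miR-210-3p and miR-130a-3p rest on the single libraries named.

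**Figure D4:**
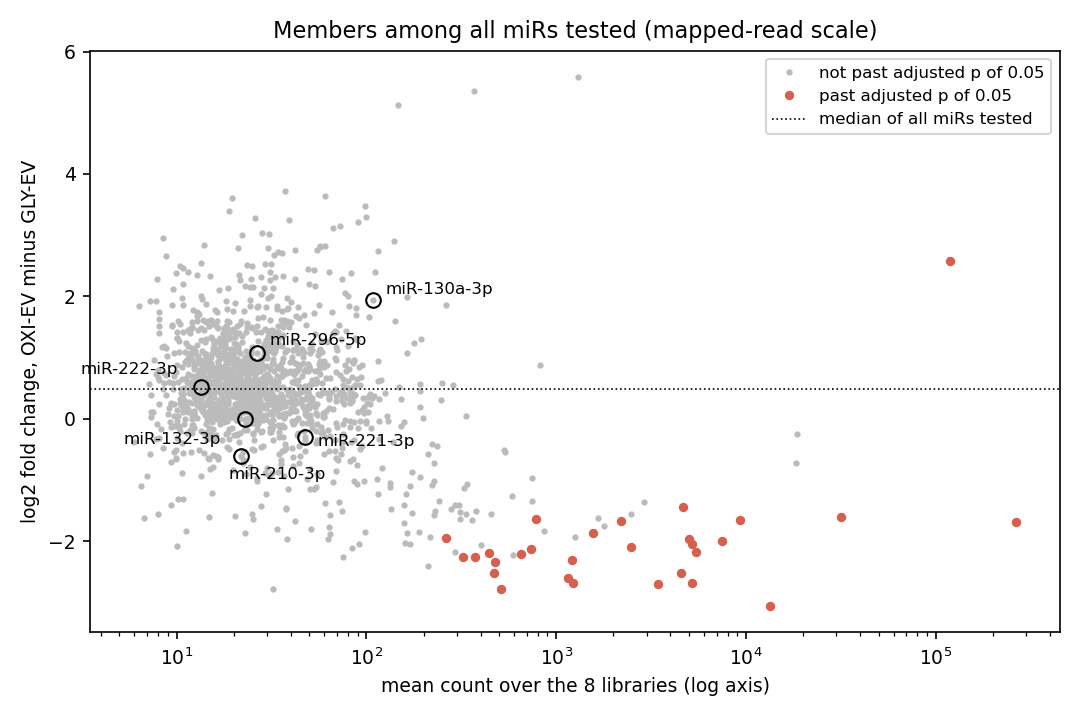
Log2 fold change (OXI-EV minus GLY-EV, mapped-read scale) against the mean count over the 8 libraries (log axis) for the 1569 miRs tested. Red points are the 29 past an adjusted p of 0.05, all with a mean count of at least 100, the dotted line is the median of 0.48, and circles mark the 6 miRs.

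The arm of a hairpin that gives most of the counts was compared within libraries, for 488 hairpins whose arms each had a mean of at least 10 counts. The groups did not overlap for 11.1% of them, and for none of the hairpins of miR-130a, miR-132, miR-221, miR-222 and miR-296. The mean log2 ratio of 5p to 3p was below 0 in both groups for these 5. For miR-222 in OXI-EV, with 1, 43, 0 and 22 counts of the 5p arm, the mean level went the other way, at 3.78 CPM for miR-222-5p and 3.23 CPM for miR-222-3p. The mean log2 ratio of miR-296 was -1.03 ± 0.771 (SD, n = 4) in OXI-EV and -0.55 ± 1.64 (SD, n = 4) in GLY-EV. The miR-221 hairpin had the smallest permutation p of the 5, with -0.71 ± 0.464 (SD, n = 4) in OXI-EV and -1.49 ± 0.686 (SD, n = 4) in GLY-EV (two-sided exact permutation p = 0.171, adjusted p = 0.581). For miR-132 and miR-222 the ratio changed sign between libraries of one group, from -5.55 to 1.27 and from -4.52 to 1.49 in OXI-EV. In GLY-EV it did so for miR-296, from -2.73 to 1.22, and for miR-130a, from -2.12 to 0.29.

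**Figure D5:**
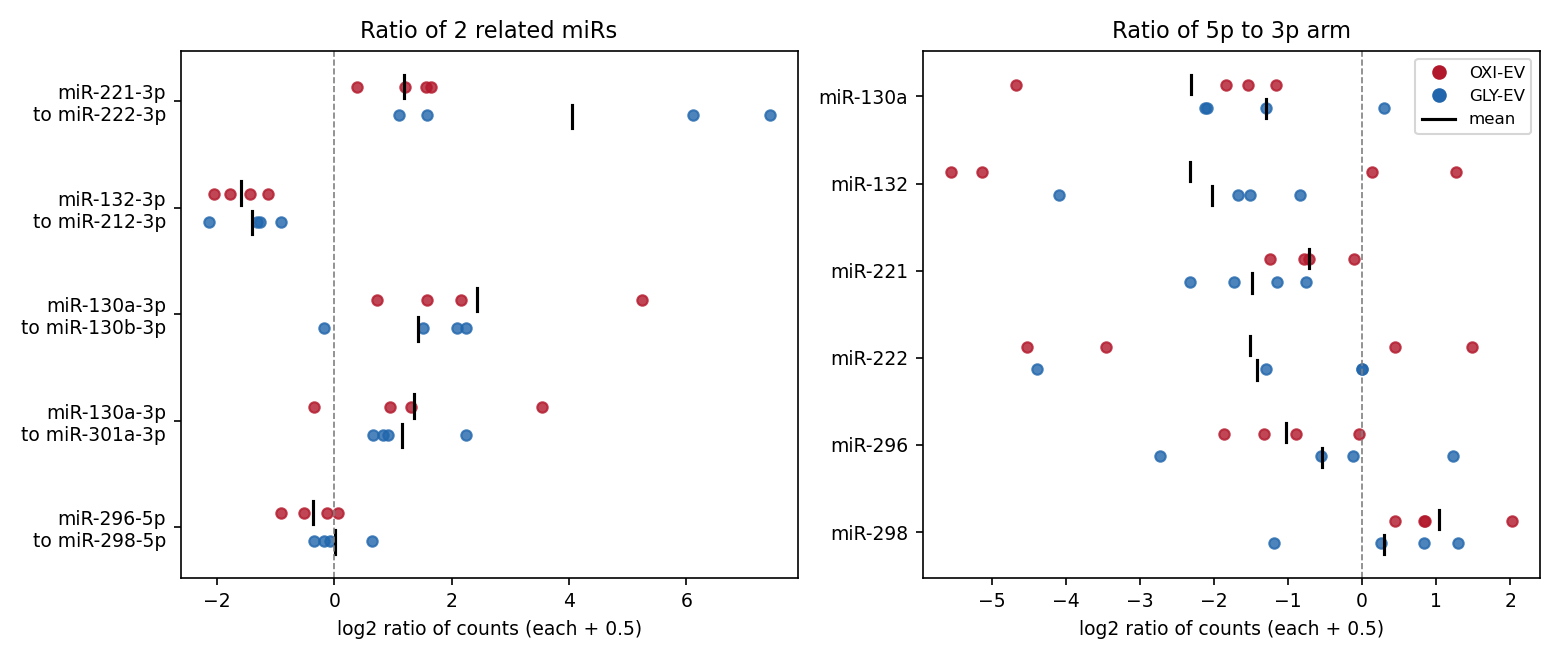
Log2 ratios of counts (each plus 0.5) within libraries, OXI-EV in red and GLY-EV in blue with bars at group means. Left, pairs of miRs from 1 locus or with 1 seed, where miR-132-3p is below miR-212-3p in all 8 libraries and miR-221-3p above miR-222-3p in all 8. Right, the 5p to the 3p arm of hairpins, where the groups overlap for each hairpin shown.

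Lists around the 6 miRs were counted the same way. Of their other arms, 4 of 6 could be tested and 0 passed the adjusted threshold, with a median log2 fold change of 0.79. Of the locus partners miR-212 and miR-298, 3 of 4 arms could be tested and 0 passed it, with a median of 0.57, and at an unadjusted p under 0.05 there was 1, beside 9.05% of all miRs higher in OXI-EV. Of 8 miRs with a shared seed, 6 could be tested and 0 passed it, with a median of 0.50. The remaining seed sharers, miR-6341 and miR-6389, had 0 to 25 and 0 to 16 counts. These medians stand beside 0.48 for all miRs tested.

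Of 27 other miRs listed for hypoxia or vessel growth, 26 were tested, 7 with a log2 fold change above 0 and 19 below, and 2 were lower in OXI-EV past the adjusted threshold, beside 1.78% of all miRs, while 0 were higher. At an unadjusted p under 0.05, 9 were lower, beside 5.42%, and with TMM 10 were lower past the adjusted threshold, beside 5.42%. The groups did not overlap for 4, all lower in OXI-EV, beside 4.53%. The median log2 fold change was -0.81 (-1.24 with TMM). The median of the mean counts of this list was 89.1, against 22.9 for the table. Of the 129 tested miRs with a mean count of at least 100, 29 (22.5%) passed the adjusted threshold on the mapped-read scale. Of the 1440 below that mean, 0 passed. The median log2 fold change of the 129 was -1.12. The shares over all miRs are thus those of mostly rarer miRs than the ones listed.

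The most abundant of that list was miR-26a-5p, which represses the BMP signal transducer SMAD1, with 244 ± 59.7 CPM (SD, n = 4) in OXI-EV and 1559.7 ± 992 CPM (SD, n = 4) in GLY-EV. Its difference of -2.68 (log2, standard error 0.42, edgeR adjusted p = 0.00489) passed the threshold without each library in turn. miR-181b-5p, named because it was the other one past the threshold, had a log2 fold change of -2.26 (adjusted p = 0.0441 from edgeR), which was not past it without any 1 library (adjusted p = 0.0588 to 0.113 from edgeR). With TMM it was -2.75 (adjusted p = 0.00176 from edgeR), and the groups did not overlap in CPM. miR-21a-5p, a miR of growth and fibrosis, had -0.54 (adjusted p = 0.723 from edgeR), miR-23a-3p -1.56 (adjusted p = 0.285 from edgeR) and the Hox cluster miR-10b-5p -1.13 (adjusted p = 0.359 from edgeR). miR-21a-5p was at -1.71 without OXI-EV 4 and miR-23a-3p at -0.36 without GLY-EV 4. Past the threshold were miR-23a-3p with DESeq2's own size factors (-1.65, adjusted p = 0.00183) and miR-10b-5p with these (-1.58, adjusted p = 0.000640), with TMM (-1.61, adjusted p = 0.0448 from edgeR) and on the low-count scale (-1.65, adjusted p = 0.0435 from edgeR).

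Markers of vessel and connective tissue cells were lower in OXI-EV libraries in sum. The endothelial miR-126a arms summed to 53.1 to 198 CPM in OXI-EV and 201 to 772 CPM in GLY-EV, smooth muscle miRs (3 listed) to 267 to 505 and 783 to 2039.5 CPM, and fibroblast miRs (3 listed) to 112 to 221.7 and 529 to 1232 CPM, with no overlap between the groups. Leukocyte miRs (5 listed) were at 26.2 to 55.4 CPM in OXI-EV and 36.1 to 131 CPM in GLY-EV, and erythroid miRs (3 listed) at 3.45 to 65.5 and 5.70 to 29.5 CPM. None of the defining markers was at 0 in all libraries. Past the adjusted threshold were 0 of 2 endothelial, 1 of 3 smooth muscle and 1 of 3 fibroblast markers. Taken singly, the groups did not overlap for miR-126a-3p but did for miR-145a-5p, miR-199a-5p and miR-214-3p. The last 3 are also on the list of 27 miRs above. Tested miRs with a mean count of at least 100 had a median log2 fold change of -1.12. The 6 miRs did not follow the endothelial, smooth muscle and fibroblast sums in separating the groups, and the part of these cell types in their levels was not tested.

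The libraries also differed in the level of rare miRs as a class. The median level of miRs with a mean of 10 to 50 counts was 2.76, 5.66, 3.85 and 5.14 CPM in OXI-EV replicates 1 to 4 and 2.96, 1.67, 2.63 and 5.02 CPM in GLY-EV. GLY-EV 2, the lowest by this measure, was also the lowest GLY-EV library for miR-210-3p, miR-130a-3p, miR-132-3p, miR-296-5p and miR-221-3p in CPM. GLY-EV 4, the highest GLY-EV library, was the highest GLY-EV library for all of the 6 but miR-210-3p. Reads of the miR class per miR count were 4.61, 3.76, 4.69 and 3.14 in OXI-EV replicates 1 to 4. In GLY-EV they were 4.14, 4.94, 4.85 and 2.63. CPM sets counts over mapped reads, so it carries such differences. The parts of these reads per count and of the shared shift in the spread of the 6 miRs were not tested.

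The miRs most alike in pattern were sought among those with a mean count of at least 100, by Pearson's r of log2 CPM over the 8 libraries, a description in which the libraries share their depth and fall into 2 groups. miR-130a-3p was most like miR-30b-5p (r = 0.95) and miR-7675-3p (r = 0.87), and miR-296-5p like miR-7669-3p (r = 0.90) and miR-6936-5p (r = 0.85). Both miR-130a-3p (550 counts against 32 to 75) and miR-30b-5p (960 against 16 to 178) peaked in OXI-EV 4. That library was also the highest for miR-296-5p, and r without it was not computed. miR-132-3p was most like miR-7653-3p (r = 0.87) and miR-6927-5p (r = 0.83), and miR-221-3p like miR-194-5p (r = 0.86) and let-7d-3p (r = 0.86). For miR-222-3p the nearest were miR-320-3p (r = 0.83) and miR-8101 (r = 0.78), and for miR-210-3p miR-653-3p (r = 0.70) and miR-5106 (r = 0.65). Among the 6 themselves r ran from -0.26, between miR-210-3p and miR-222-3p, to 0.75, between miR-130a-3p and miR-296-5p, and between the sisters miR-221-3p and miR-222-3p it was 0.20.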

How the data were processed

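Small RNA of 8 EV preparations, 4 OXI-EV and 4 GLY-EV, was sequenced by the authors with a library kit that tags each molecule with a unique identifier (UMI). The authors deposited whole-number counts for every miR in every library, and the submitters' processing notes name cutadapt, STAR and genome build GRCm38; the sources used here give no versions, no counting tool and no treatment of reads that fit several miRs. Mapped reads were taken from the authors' deposited counts of reads by class. Columns of the authors' own comparison (fold change, p-value, FDR) were not used, and 72 piRNA rows (1.16% of counts) were left out.

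edgeR 4.0.16 (R 4.3.3, with limma 3.58.1) was run as a quasi-likelihood test on these counts, mapped reads as library size, for miRs that reached 10 counts in 4 or more libraries, with Benjamini-Hochberg adjustment over all 1569 and a threshold of 0.05. Standard errors were derived from the fold change and the test statistic. The miR fits were run on simulated data with known changes. These data were drawn from the model and scale that the fit assumes, so they do not show how well that model holds here. Ratios within a library (pseudocount 0.5) went into two-sided exact permutation tests, in which 4 against 4 allow no p below 0.0286. Python 3.11.15 with pandas 2.3.3 and scipy 1.17.1 was used for the tables. Sequences and hairpin positions came from RefSeq (GRCm38.p6), which held 1517 of the 1755 miRs, and overlapping genes from GENCODE mouse release 21. Intervals and floors cover the error of the fit or of counting only.

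The miRs named are the 6 chosen, the other arms, locus partners and seed sharers, the 4 most abundant of a list of 27 other miRs of hypoxia or vessel growth, and the 2 most alike in pattern to each. The 6 were picked for their described roles and no rule on measured values, yet they and these lists were chosen with earlier results of these data known. Alternatives were other scales, filters and tools (DESeq2 1.42.0, limma-voom), blocks by replicate or preparation number, and leaving out each library. The authors compared EV release between the muscles by paired t-tests. Whether equal numbers mark one mouse among the sequenced libraries is not stated, so no pairing was used, and p-values measure the spread between these preparations.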

Additional observations from a re-analysis of the deposited data

Results flagged for a closer look

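In each group of 4 libraries, a highest or lowest library whose gap to the nearest other exceeded Dixon's critical share of the group's range was noted for the 6 miRs, their other arms, locus partners and seed sharers. This happened in 7 of 46 groups examined. The critical share is set to give about 5% for normal values, which low counts are not, so no excess can be read from this number. Among the 6 miRs it held for miR-130a-3p in OXI-EV 4, at 113 CPM, and for miR-296-5p in GLY-EV 4, at 6.18 CPM. The other 5 were also in GLY-EV 4, with miR-130a-5p at 17.8 CPM, miR-210-5p at 2.32 CPM, and miR-222-5p, miR-212-5p and miR-6389 at 3.09 CPM each. The last 3 had 16 counts in GLY-EV 4 and 0 in the other GLY-EV libraries. The 4 rarest of these miRs had means under or near 10 counts.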

How the results depend on the processing

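On the mapped-read scale 29 miRs passed the threshold. The number was 86 with TMM, 86 with DESeq2's size factors in edgeR, 236 scaled to total miR counts, 54 scaled to total reads, 58 with at least 10 counts required in all 8 libraries, 54 with edgeR's likelihood ratio test, 86 with DESeq2 on mapped reads, 128 with DESeq2's own size factors, 89 on a scale over low-count miRs added after the data were seen, and 10 to 29 without 1 library. Of the 6 miRs only miR-296-5p was among them, and only when scaled to total miR counts (1.56). Not all 6 had an adjusted p in each setting, however. With DESeq2 on mapped reads there was none for miR-210-3p, miR-130a-3p, miR-132-3p and miR-222-3p. With DESeq2's own size factors there was none for miR-130a-3p and miR-222-3p. The filter of 10 counts in all 8 libraries left 3 of the 6. Signs changed for miR-210-3p (0.12 with limma-voom), miR-132-3p (0.59 scaled to total miR counts, 0.32 with limma-voom) and miR-221-3p (0.22 scaled to total miR counts). Among related miRs, signs changed for miR-221-5p (-0.0031 on the low-count scale), miR-212-3p (-0.0376 scaled to total reads, -0.0138 on the low-count scale) and miR-130b-3p (0.14 scaled to total miR counts). miR-222-3p kept its sign but ran from 0.17 scaled to total reads to 2.81 with limma-voom. The cause was not tested.

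Without 1 library, the log2 fold change ranged from -0.98 to 0.44 for miR-210-3p, from -0.19 to 2.28 for miR-130a-3p, from -0.34 to 0.56 for miR-132-3p, from 0.10 to 2.70 for miR-222-3p and from -0.55 to 0.0808 for miR-221-3p. For related miRs it ranged from -1.25 to 0.70 (miR-130a-5p), from -0.67 to 0.0369 (miR-130b-3p) and from -0.0605 to 1.06 (miR-130c). The difference in arm ratio ranged from -1.48 to 0.79 for miR-132, from -1.09 to 0.91 for miR-222 and from -1.21 to 0.11 for miR-296, and that of miR-130a-3p to miR-301a-3p from -0.53 to 0.77.

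Libraries with the same replicate number did not deviate together (correlations 0.161, -0.155, -0.127 and 0.0515). So few weak values cannot show whether the numbers mark one mouse. With a replicate block 42 miRs passed the threshold, 32 with a block by preparation number, and none of the 6 in either. OXI-EV 2 is preparation 3 and GLY-EV 2 is preparation 2. The replicate block thus joins unlike preparation numbers there, and the preparation block leaves both libraries without a partner. The block by replicate number turned miR-132-3p to 0.25 and moved miR-222-3p to 2.19 (2.26 by preparation number), and that by preparation number miR-132-5p to -1.24, miR-221-5p to -0.0294 and miR-130c to -0.0147. DESeq2 gave no adjusted p for some of these miRs. For miR-130a-3p, the most abundant of the 6, it gave no unadjusted p either, on mapped reads or with its own size factors. The OXI-EV counts of miR-130a-3p were 33, 37, 32 and 550, and why its p is missing was not tested. Low counts limit the other values given here.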
